A study of Mus musculus with 12 samples.

Results

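The replication-dependent histone genes encode the bulk of the H1, H2A, H2B, H3 and H4 protein that packages newly made DNA. In the deposited table they were taken as the protein-coding genes whose name belongs to the Hist1 to Hist4 clusters, in the older or the newer mouse nomenclature. The rule found 59 of the 34513 genes listed, of which 6 encode H1, 15 H2A, 16 H2B, 10 H3 and 12 H4. SX-682, an antagonist of the chemokine receptors CXCR1 and CXCR2, was applied in culture to Melan-A cells, a mouse melanocyte line that forms no tumors, and to the mouse melanoma lines B16F0 and B16F10. RNA-seq libraries were made of untreated and of SX-682-treated cells, 2 for every one of the 6 groups. The comparisons ask how SX-682 changed RNA levels in each line and how the untreated lines differed. Each line is 1 established culture, no allele or transgene was named, and the dose and duration used for the sequenced cultures were not given in the sources used here. The labels do not say whether replicates came from separate cultures, so the p-values measure only the spread between these libraries, which may be technical.

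Most genes are transcribed, spliced and given a poly(A) tail. Replication-dependent histone genes as a rule have no introns, are transcribed during S phase, and give an mRNA that ends a few bases after a short stem-loop in place of a poly(A) tail. SLBP binds that stem-loop, and the U7 snRNP directs the cut after it. In cells that leave the cell cycle some of these genes, H1f2 and certain H2B genes among them, are known to give longer, polyadenylated mRNAs instead. Linker histone H1 sits where DNA enters and leaves the nucleosome, and H2A, H2B, H3 and H4 form its core.

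Library totals ranged from 48876982 to 85322092 counts. The 59 members together took 0.00709 to 0.0387% of a library's counts. Values are deposited counts, or CPM, which are counts divided by the library size after TMM scaling. A library with at most 3 counts of a gene was taken as not telling it from 0. Of the 59 members, 50 passed the filter on low counts and were tested, and 9 did not (H1f1, H1f6, H2ac1, H2ac21, H2bc1, H2bc13, H4c2, Hist1h2bq and Hist1h2br). Melanocyte genes were read in every line, with Sox10, the neural crest transcription factor, at 359 CPM or more in each group's mean. Tyr, which encodes the pigment enzyme tyrosinase, averaged only 0.826 and 0.281 CPM in the untreated and SX-682 libraries labelled Melan-A, against 17.9 to 515 CPM in the B16 groups, so that a defining gene of pigmented melanocytes was nearly absent under the Melan-A label. Pmel, a melanosome matrix gene, averaged 8.11 CPM in untreated Melan-A and at least 3934 CPM in the B16 groups. Of 7 melanocyte markers, 4 fell and 2 rose with SX-682 in Melan-A, and all 7 fell in each B16 line. Melan-A in the comparisons below stands for libraries with that label, whose cell identity was not checked beyond these genes. The 3 fibroblast markers differed between lines in unlike ways. Col1a1 averaged 46.0 to 46.4 CPM in the Melan-A groups and 2.59 to 8.39 CPM in the B16 groups, Col1a2 0.268 to 0.764 against 2.18 to 5.14 CPM, and Pdgfra 4 to 4.57 CPM against 5.83 to 8.11 in the B16F0 and 1.33 to 1.68 in the B16F10 groups. The leukocyte gene Ptprc did not exceed 0.255 CPM and the keratinocyte gene Krt5 did not exceed 0.0825 CPM in any library. The part of these differences in the results that follow was not tested.

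The stem-loop is the sequence that defines this family, and it was searched for within 200 bases after the stop codon of each annotated transcript. The letters searched, on the transcript strand, were GGNNNT for the rising arm, TNTN for the loop and ANNNCC for the falling arm, with all 6 bases of the arms paired. The motif was found in 40 of 59 members (67.8%) and in 9 of 18851 other protein-coding genes (0.0477%), 4 of which are the histone genes H2ax, H2aw, H2bu2 and H4f16. Of the 19 members without a match, 12 have no annotated base after the stop codon. The stem-loops of 6 members are shown with 5 flanking bases on each side and the stem-loop itself in capitals, because they include the members with the highest level per kb among H1, H3 and H4, an H2A and an H2B gene that rose with SX-682, and the forms that differ between classes.
H1f2, chr13:23739512-23739527 (+): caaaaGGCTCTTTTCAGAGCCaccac
H2ac6, chr13:23683477-23683492 (-): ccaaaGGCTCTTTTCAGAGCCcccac
H2bc6, chr13:23585531-23585546 (-): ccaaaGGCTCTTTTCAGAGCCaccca
H3c3, chr13:23745047-23745062 (-): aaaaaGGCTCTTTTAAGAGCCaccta
H4c9, chr13:22040966-22040981 (-): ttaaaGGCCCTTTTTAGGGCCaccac
H4c11, chr13:21735437-21735452 (+): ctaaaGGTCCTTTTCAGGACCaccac
Coordinates are those of the 16 capital letters on GRCm38. The form carried by H1f2 was the most frequent, in 21 of the 40 members, and 8 forms were found in all. Among the matched members, the stems that begin GGCCC or GGTCC were found only in H4 genes.

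The annotation extends past the stem-loop by very different lengths, and this feature is referred to again beside the results. In 21 members the annotated transcript ends within 100 bases of the stem-loop, as for H3c3 with 74 bases. In 19 members it runs more than 100 bases beyond, with 840 bases in H1f2, 1153 in H1f4, 1861 in H2bc6, 2010 in H2ac6 and 4884 in H1f3. H2bc4 and H2bc21 showed no match but have 742 and 2192 annotated bases after the stop codon. These lengths are those of the annotation, and which 3′ ends the libraries held was not measured. Whether the libraries were made from poly(A) RNA was not given in the sources used here. The abundant 7SK RNA gene Rn7sk, which has no poly(A) tail, held 2.08 to 5.17 CPM, and small nuclear RNA genes held 0.000616 to 0.00115% of counts.

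The promoters of histone genes carry short elements that also differ between classes. Of the 59 members, 53 were matched to a RefSeq start site on GRCm38.p6, and 250 bases before to 50 bases after it were searched on both strands. CCAAT, the binding letters of factor NF-Y, was found in all 6 H1, 14 H2A, 14 H2B and 8 H3 promoters, in 3 of 11 H4 promoters, and in 37.9% of all 27025 promoters. AAACACA, the H1 box, was found in 5 of 6 H1 promoters against 7.14% of all promoters. ATTTGCAT, the octamer read by Oct-1, was found in 6 of 14 H2A and 5 of 14 H2B promoters against 1.75% of all. TATAAA was found in 33 of the 53 (62.3%) against 14.2% of all. The promoters of H1f2 and H1f5 are shown because the first gene had the most counts of any member in every library and the second was not read in any B16 library, and that of H2bc8 because it overlaps the promoter of its neighbour H2ac8 by 279 bases on the other strand. Capitals mark matches to the motifs named above.
H1f2, chr13:23738557-23738856 (+): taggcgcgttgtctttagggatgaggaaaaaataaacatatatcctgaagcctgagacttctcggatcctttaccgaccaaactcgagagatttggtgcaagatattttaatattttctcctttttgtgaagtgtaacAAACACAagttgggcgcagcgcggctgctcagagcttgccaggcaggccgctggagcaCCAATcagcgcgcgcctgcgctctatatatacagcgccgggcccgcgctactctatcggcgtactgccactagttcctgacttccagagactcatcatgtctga
H1f5, chr13:21780576-21780875 (-): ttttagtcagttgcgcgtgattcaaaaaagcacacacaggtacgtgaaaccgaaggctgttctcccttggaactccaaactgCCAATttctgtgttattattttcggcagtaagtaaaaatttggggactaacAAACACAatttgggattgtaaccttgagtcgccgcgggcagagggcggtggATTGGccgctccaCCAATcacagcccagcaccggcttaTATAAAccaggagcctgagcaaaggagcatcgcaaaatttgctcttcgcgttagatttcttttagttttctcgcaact
H2bc8, chr13:23571150-23571449 (+): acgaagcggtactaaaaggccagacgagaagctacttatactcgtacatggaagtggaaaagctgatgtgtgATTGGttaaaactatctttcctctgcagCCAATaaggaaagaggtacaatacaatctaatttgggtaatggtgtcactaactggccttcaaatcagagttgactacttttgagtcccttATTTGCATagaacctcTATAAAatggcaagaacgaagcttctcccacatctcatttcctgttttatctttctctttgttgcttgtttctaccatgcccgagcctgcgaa
The H1f2 and H1f5 promoters both held CCAAT and the H1 box, and H1f5 also held TATAAA. No match says only that the letters were not in the window.

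H1f2 (Hist1h1c, ENSMUSG00000036181.2, chr13:23738808-23740367), a linker histone gene, had the most counts of any member in all 12 libraries and the smallest p of any member for SX-682 in every line. It held 3832 and 4172 counts in untreated Melan-A and 6924 and 7131 with SX-682, 2569 and 2278 then 18144 and 14063 in B16F0, and 2398 and 2707 then 11934 and 11796 in B16F10. This was 44.4 and 45.9 CPM per library against 97.1 and 95 in Melan-A, 34.3 and 33.9 against 275 and 292 in B16F0, and 39.7 and 42.4 against 197 and 202 in B16F10. The treated and untreated libraries did not overlap in any line, and the treated B16 libraries stood far above the treated Melan-A libraries. The rise was 2.13-fold in Melan-A (log2 fold change 1.09 ± 0.04 SE, n = 2 against 2, edgeR adjusted p = 1.5e-20). In B16F0 it was 8.32-fold (3.06 ± 0.04, adjusted p = 5.1e-31) and in B16F10 4.86-fold (2.28 ± 0.04, adjusted p = 2.3e-28). The rise in B16F0 exceeded that in Melan-A by 1.97 ± 0.05 on the log2 scale, and that in B16F10 by 1.19 ± 0.05. H1f2 made up 30.2 to 48.3% of all member counts in the untreated libraries and 45.4 to 74.4% in the SX-682 libraries. Of its 100-base windows, 5.07% also occur in another gene's transcript.

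**Figure D1:**
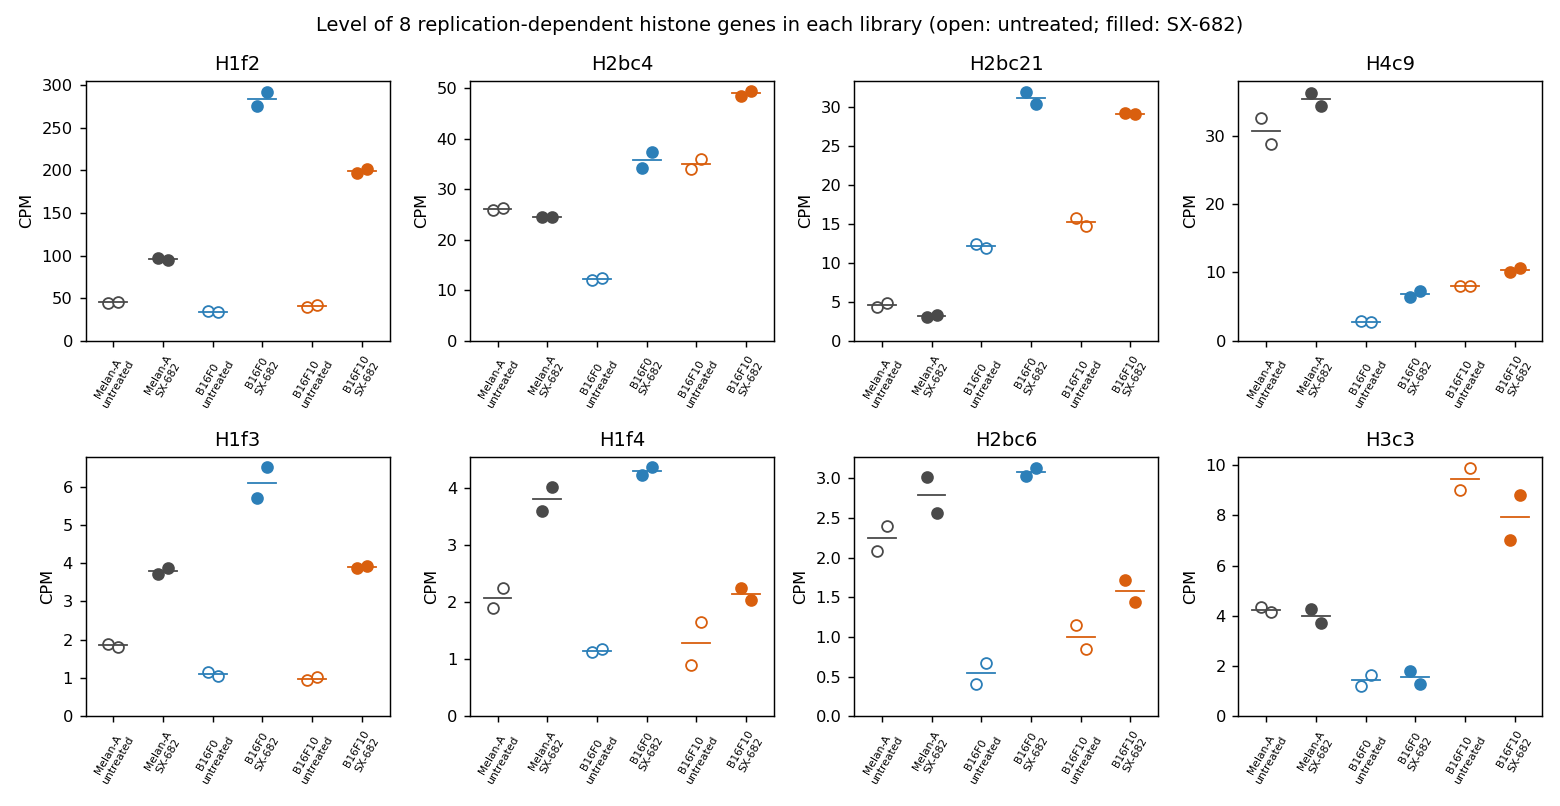
CPM of 8 histone genes in each of the 12 libraries, with open points for untreated and filled points for SX-682 libraries, and a line at each group's mean of 2. H1f2, H1f3 and H1f4 lie higher with SX-682 in every line, H2bc21 lies lower with SX-682 in Melan-A and higher in both B16 lines, and H3c3 overlaps between treated and untreated libraries in Melan-A and B16F0.

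Among the 6 H1 members 4 were tested, and H1f2, H1f3 and H1f4 rose in all 3 lines. H1f5 was read only in Melan-A and was not called there, and H1f1 and H1f6 were not tested. H1f3 (Hist1h1d) held 1.90 and 1.82 CPM in untreated Melan-A, 1.15 and 1.04 in B16F0 and 0.943 and 1.02 in B16F10. With SX-682 it held 3.72 and 3.88, 5.71 and 6.50, and 3.88 and 3.92 CPM. These are rises of 1.03 ± 0.16, 2.47 ± 0.17 and 1.99 ± 0.18 on the log2 scale, with edgeR adjusted p of 2.8e-06, 4.4e-13 and 1.3e-10. H1f4 (Hist1h1e) rose most in B16F0, by 1.91 ± 0.21, and by 0.87 ± 0.19 and 0.74 ± 0.23 in Melan-A and B16F10. Its rise in B16F10 was not called without the first untreated library (0.37, adjusted p = 0.22) or without the first SX-682 library (0.65, adjusted p = 0.0514). H1f4 shares 496 exonic bases with H2bc6 on the same strand, 25.7% of its annotated length, so reads there cannot be told apart. H1f5 (Hist1h1b) held 37 and 50 counts in untreated Melan-A and 63 and 54 with SX-682 (log2 fold change 0.71 ± 0.48, adjusted p = 0.24). Summed over the class, untreated Melan-A, B16F0 and B16F10 held 49.6 ± 1.38, 36.4 ± 0.326 and 43.3 ± 2.53 CPM of H1 RNA (SD, n = 2). With SX-682 the same sums were 104.5 ± 1.21, 294 ± 12.3 and 205 ± 3.33 CPM.

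Over all 50 tested members, the 4 linker histone genes included, calls were mixed. In B16F0, SX-682 raised 15 of the 50 (30%) and lowered 0, where it raised 25.1% and lowered 25% of all 18338 genes tested. At an unadjusted p under 0.05 it raised 16 and lowered 1, and DESeq2 called 14 raised and 0 lowered. In Melan-A it raised 9 and lowered 3 of 50 (18% and 6%), against 23.4% and 24.7% of all genes. In B16F10 it raised 9 and lowered 3 of 50 (18% and 6%), against 25.5% and 25.3% of all genes. The falls were 1 rather than 3 in Melan-A without its second untreated or first SX-682 library, and 1 rather than 3 in B16F10 without its first untreated or first SX-682 library. The median log2 fold change of the 50 members was 0.17, 0.13 and 0 in Melan-A, B16F0 and B16F10, and that of all genes was 0 in each line. Over all 50, the share raised was near the background in B16F0 and under it in the other lines. Of the 35 members outside the 18-gene block described further on, 15 rose in B16F0 (42.9%), 9 in B16F10 (25.7%, near the background) and 5 in Melan-A (14.3%). In the B16 lines 16 of the 50 members had at most 3 counts in every library of the line. The members that rose in all 3 lines were H1f2, H1f3, H1f4, H2ac6 and H4c9, 5 of 50 (10% against 11.3% of all genes). None was lowered in all 3 by edgeR, with 1 lowered in all 3 at an unadjusted p under 0.05 and 0 by DESeq2, and all genes gave 11.7%. Without the second untreated Melan-A library the 5 became 3 and the 9 raised in Melan-A became 5.

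**Figure D2:**
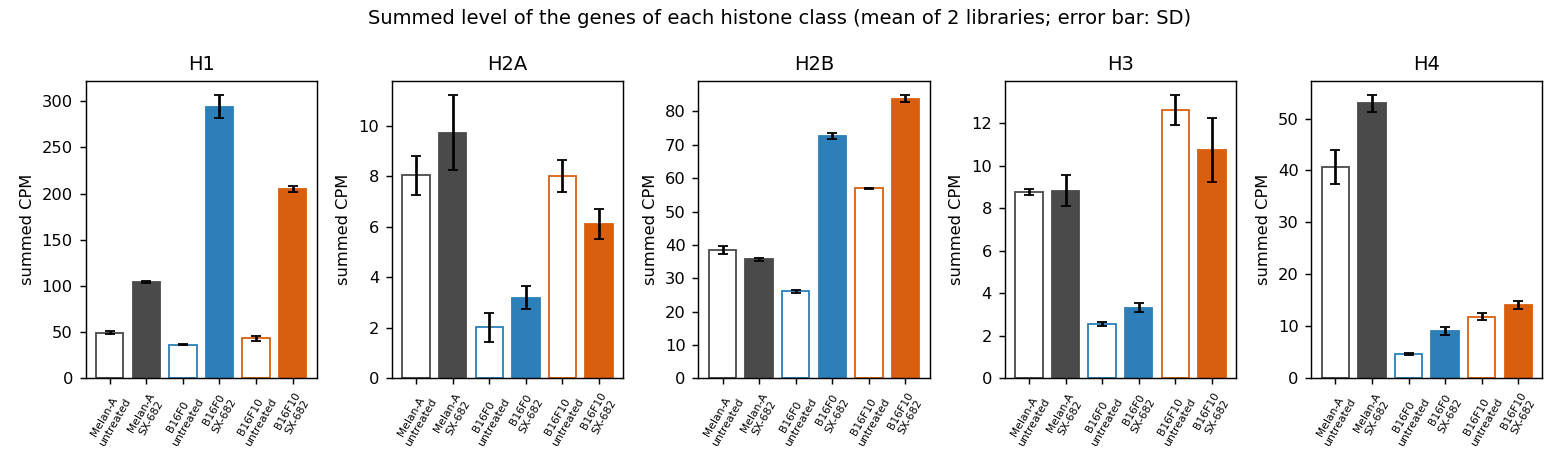
Summed CPM of the members of each class in the 6 groups, as the mean of 2 libraries with the SD (open bars untreated, filled bars SX-682). H1 rises with SX-682 in every line, to 294 CPM in B16F0, H2B rises in both B16 lines and not in Melan-A, and the H4 sum is highest in Melan-A.

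Among the H2B genes, 5 of 12 tested rose in B16F0 and 3 in B16F10, while in Melan-A 3 fell (H2bc9, H2bc12 and H2bc21). Of all genes, 25.1% and 25.5% rose in the B16 lines and 24.7% fell in Melan-A, so the latter counts were at the background. H2bc4 (Hist1h2bc, ENSMUSG00000018102.5, chr13:23684199-23692908) and H2bc21 (Hist2h2be, ENSMUSG00000068854.7, chr3:96221119-96223738) supplied most H2B RNA. H2bc4 held 25.8 and 26.3 CPM in untreated Melan-A and 24.6 in both SX-682 libraries, 11.9 and 12.4 against 34.2 and 37.5 in B16F0, and 34.0 and 36.0 against 48.4 and 49.6 in B16F10. It rose 2.94-fold in B16F0 (1.55 ± 0.06, edgeR adjusted p = 2.6e-19) and 1.40-fold in B16F10 (0.49 ± 0.05, adjusted p = 2.3e-09), and was at −0.08 ± 0.05 in Melan-A (adjusted p = 0.21). H2bc21 moved in opposite directions between the lines. It held 4.27 and 4.80 CPM in untreated Melan-A and 3.09 and 3.33 with SX-682, a fall of 0.50 ± 0.10 on the log2 scale (adjusted p = 9.2e-05). In B16F0 it went from 12.4 and 11.9 to 31.8 and 30.3 CPM (1.36 ± 0.07) and in B16F10 from 15.8 and 14.7 to 29.1 and 29.0 CPM (0.93 ± 0.07). Its changes differed among the lines (edgeR F-test, adjusted p = 7.1e-13), as did those of H2bc4 (adjusted p = 1.1e-15). H2bc6 (Hist1h2be) rose 5.70-fold in B16F0, from 0.414 and 0.669 to 3.04 and 3.14 CPM (2.52 ± 0.25). In B16F10 it rose by 0.66 ± 0.24, a call lost without the second untreated library (adjusted p = 0.25) or the first SX-682 library (adjusted p = 0.17). The falls of H2bc12 (−1.33 ± 0.41) and H2bc9 (−1.06 ± 0.38) in Melan-A were each lost without the second untreated library, at adjusted p of 0.0559 and 0.17, and without the first SX-682 library, at 0.0796 and 0.089. That of H2bc9 was also lost without the second SX-682 library (adjusted p = 0.0844).

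H2bc8 (Hist1h2bg) and H2ac8 (Hist1h2ae) lie head to head and share most of the promoter printed above, but were not called alike in the B16 lines. In Melan-A neither was called (log2 fold changes of 0.33 and 0.12). H2bc8 went from 21 and 29 to 113 and 75 counts in B16F0 (2.21 ± 0.31, edgeR adjusted p = 6.3e-07). H2ac8 went from 39 and 74 to 61 and 40 counts in the same libraries (0.14 ± 0.31, adjusted p = 0.76). In B16F10 H2ac8 went from 262 and 227 to 151 and 138 counts (−0.70 ± 0.24, adjusted p = 0.016), a call lost without the first untreated library (adjusted p = 0.15) or the second SX-682 library (adjusted p = 0.0755). The difference between both genes was not tested. Promoters overlapped in this way for 9 pairs of an H2A and an H2B member, of which 6 had both members tested.

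Among the H2A genes, H2ac6 (Hist1h2ac) rose in all 3 lines. Its counts went from 74 and 67 to 99 and 128 in Melan-A, from 18 and 10 to 56 and 60 in B16F0 and from 25 and 36 to 64 and 71 in B16F10. The log2 fold changes were 0.96 ± 0.29, 2.39 ± 0.37 and 1.21 ± 0.33, with the first not called without the second untreated or the second SX-682 Melan-A library (adjusted p = 0.0613 and 0.0873). H2ac4 rose in B16F0 (6 and 4 to 25 and 15 counts, 2.28 ± 0.61). H2ac7 was called in both B16 lines from 1 count in each untreated library to 5 to 7 in each SX-682 library, and those calls were lost when any 1 library was left out. The H2A sum was 8.03 ± 0.757 and 9.72 ± 1.48 CPM in Melan-A without and with SX-682, 2.02 ± 0.572 and 3.20 ± 0.443 in B16F0, and 8.01 ± 0.621 and 6.09 ± 0.595 in B16F10.

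Of the 10 H3 genes tested, SX-682 raised 2 in B16F0 and lowered 1 in B16F10. Of the 11 H4 genes tested it raised 4 in Melan-A (H4c9, H4c11, H4c12 and Hist1h4n), 2 in B16F0 (H4c8 and H4c9), and in B16F10 raised H4c9 and lowered H4c3. The shares of all genes raised in Melan-A and B16F0 were 23.4% and 25.1%. H3c3 (Hist1h3c), the H3 member with the highest level per kb, held 376 and 377 counts in untreated Melan-A and 306 and 278 with SX-682 (−0.09 ± 0.15, adjusted p = 0.66). In B16F0 its counts were 90 and 112 against 119 and 62, and in B16F10 546 and 633 against 427 and 516 (0.14 ± 0.20 and −0.26 ± 0.14). In B16F0 H3c4 (4 and 5 to 17 and 7 counts, 1.68 ± 0.65) and H3c15 were raised. The call of H3c4 was lost without either untreated library (adjusted p = 0.161 and 0.0688) or the first SX-682 library (adjusted p = 0.306). H4c8 went from 16 and 36 to 54 and 28 counts in B16F0 (0.94 ± 0.36), a call lost without the first untreated or the first SX-682 library (adjusted p = 0.441 and 0.278). H3c15 was at 0 in both untreated B16F0 libraries and at 13 and 11 counts with SX-682, at least 5.03-fold higher when 3 counts are taken in each library at 0. H4c9 (Hist1h4i, ENSMUSG00000060639.5, chr13:22040636-22041362) supplied most H4 RNA, at 42.2, 3.82 and 11 CPM per kb in untreated Melan-A, B16F0 and B16F10. SX-682 raised it by 1.28 ± 0.11 in B16F0 (2.86 and 2.69 to 6.39 and 7.21 CPM), by 0.37 ± 0.09 in B16F10 (7.94 and 8.03 to 10.1 and 10.6 CPM) and by 0.20 ± 0.07 in Melan-A (32.5 and 28.8 to 36.3 and 34.3 CPM). The Melan-A call was lost without the second untreated library (adjusted p = 0.22) and without the first SX-682 library (adjusted p = 0.11). The members lowered in B16F10 were H2ac8, H3c1 (−1.27 ± 0.50) and H4c3 (−1.43 ± 0.46), and each of the 3 calls was lost without 1 or another library. For H3c1 those were the second untreated and the first SX-682 library (adjusted p = 0.36 and 0.22), and for H4c3 the first untreated and the first SX-682 library (adjusted p = 0.515 and 0.105).

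**Figure D3:**
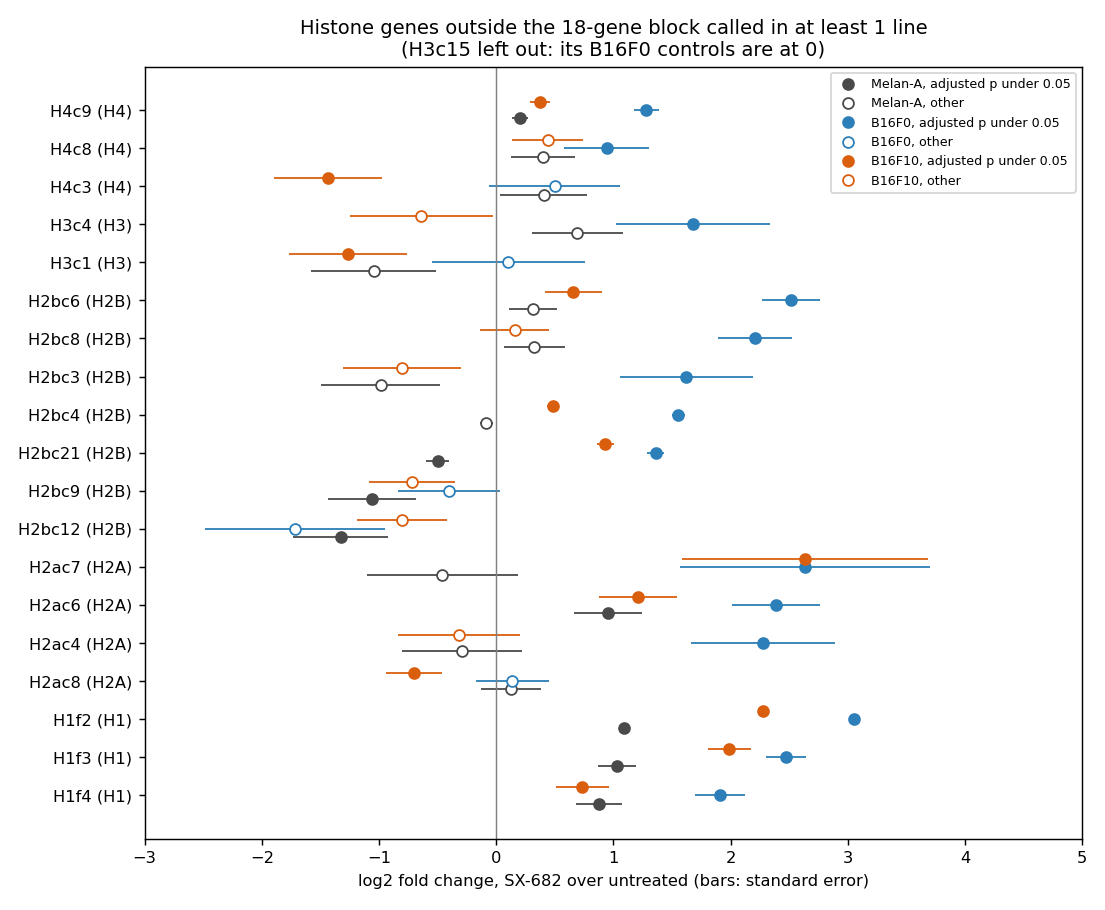
Log2 fold change of SX-682 over untreated, with its standard error, for the 19 members outside the 18-gene block that were called in at least 1 line (H3c15, at 0 in untreated B16F0, left out), filled where the adjusted p was under 0.05. The B16F0 values of H1f2, H2ac7, H2bc6, H1f3, H2ac6, H2ac4 and H2bc8 lie above 2, and H2bc21 lies under 0 in Melan-A and above 0 in both B16 lines.

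The change under SX-682 differed among the lines for 14 of the 50 members (28%), against 47.4% of all genes. All 14 lie outside the 18-gene block, where 35 members were tested (40%). The 15 tested members of the block had at most 3 counts in any B16 library. A difference among lines could hardly be called for them. In each of the 14 the highest log2 fold change was that of B16F0, although for H2ac7 the B16F10 value was nearly the same (2.63 in both) and for H4c3 the B16F0 value was not called (0.50). Summed over all 59 members, untreated Melan-A held 145.4 ± 0.107 CPM, B16F0 71.7 ± 0.926 and B16F10 132.7 ± 1.75, against 212 ± 3.09, 383 ± 14.3 and 319.9 ± 7.27 with SX-682. Without H1f2 the same sums were 100.3 ± 1.20 and 116 ± 1.59, 37.6 ± 1.22 and 98.9 ± 2.50, and 91.7 ± 0.156 and 121 ± 3.81 CPM. The ratio of sums was thus 5.33 in B16F0 with H1f2 and 2.63 without it.

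Members were also grouped by how far the annotated transcript runs past the stem-loop. Of the 18 tested members extending more than 100 bases beyond it, SX-682 raised 9 in B16F0, 6 in B16F10 and 6 in Melan-A, and lowered 0, 2 and 1. Of the 20 tested members ending within 100 bases, it raised 4, 1 and 2, and lowered 0, 1 and 1. Of all genes tested it raised 25.1%, 25.5% and 23.4% in the same order. The short group holds more members of the 18-gene block described further on, almost unread in B16, than the extended group, where only H4c11 belongs to it. The B16 counts of both groups are thus not on an equal footing. The summed level of the extended members went from 43.2 to 310 CPM in B16F0 and from 62.7 to 226 CPM in B16F10, while that of the short ones went from 3.83 to 4.76 and from 19.1 to 15.2 CPM. H1f2 alone made up most of the extended sum with SX-682 and most of the rise of that sum in each line. The rise of the extended sum is thus mainly that of a single gene, and the sum without H1f2 was not computed. Over all 59 members, leaving out H1f2 took the ratio of treated to untreated sums from 2.41 to 1.32 in B16F10. In B16F0 that ratio went from 5.33 to 2.63. In Melan-A the extended sum went from 93.0 to 157 CPM and the short one from 15.3 to 16.9 CPM. The 2 tested members with no match but over 500 annotated bases after the stop codon, H2bc4 and H2bc21, were raised in both B16 lines. In Melan-A neither was raised, and H2bc21 was lowered. Hist1h2bq and Hist1h2br, of the same kind, were not tested. These are counts over genes that share clusters, libraries and depth, the lengths were grouped after values were seen, and no test was made. Shorter members also share more sequence with their relatives. Of the 18 tested members with at least 50% of their 100-base windows in another gene's transcript, 3 were raised in B16F0, 1 in B16F10 and 3 in Melan-A. Many of these 18, H4c12 and Hist1h2ao among them, lie in the 18-gene block, with at most 3 counts in any B16 library. The B16 counts therefore do not show how shared sequence bears on the rises. How reads that match several genes were counted was not given in the sources used here.

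**Figure D4:**
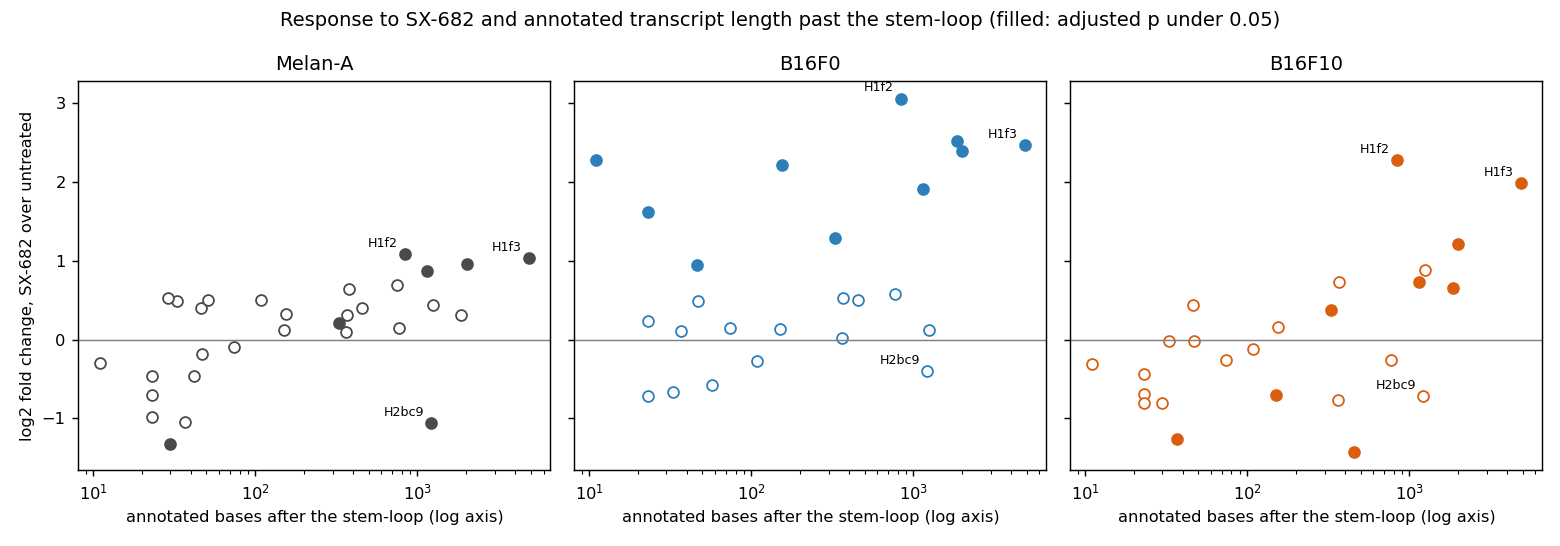
Log2 fold change of SX-682 over untreated against the annotated bases after the stem-loop, on a log axis, for members outside the 18-gene block with a mean of at least 10 counts per library in the line shown (30 in Melan-A, 25 in B16F0, 25 in B16F10), filled where the adjusted p was under 0.05. Of the 7 members with more than 800 bases, 4 rose in Melan-A and 5 in each B16 line, and of the members with up to 100 bases 0 of 13, 3 of 10 and 0 of 10 rose. H1f4 and H2bc6, among the 7, share 496 exonic bases. Between these limits H4c9 rose in each line and H2bc8 in B16F0. Plotted falls were H2bc9 and H2bc12 in Melan-A, and H2ac8, H3c1 and H4c3 in B16F10. Of all genes tested, 23.4%, 25.1% and 25.5% rose in Melan-A, B16F0 and B16F10.

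Levels per kb were ranked over all libraries, although they differed by line. As the mean of the 12 libraries per kb of gene length, H1f2 stood at 74.7 CPM per kb, H1f4 at 1.28 and H1f3 at 0.40. H2bc4 stood at 26.3 and H2bc21 at 6.06, followed by H2bc11 at 2.34. H4c9 stood at 21.5, H4c12 at 4.29 and H4c8 at 2.48, but H4c12 was at 7.50 and 18.2 CPM per kb in the untreated and treated Melan-A groups and at 0 in each B16 library. H1f2 was not the highest in each group, since H4c9 exceeded it in untreated Melan-A (42.2 against 28.9 CPM per kb) and H2bc4 in untreated B16F10 (30.2 against 26.3). H3c3 led the H3 genes at 7.57, ahead of H3c8 at 0.96 and H3c1 at 0.85, and H2ac8 led the H2A genes at 2.63 with Hist1h2ao and H2ac11 both at 2.06 CPM per kb. In Melan-A, however, Hist1h2ao was the highest H2A gene, at 4.52 and 7.73 CPM per kb against 2.07 and 2.27 for H2ac8, and in the B16 groups it stayed under 0.1.

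The members form 5 blocks when genes more than 100 kb apart are split, a rule set after the values were seen. One block of 18 genes, chr13:21715763-21837530 (GRCm38), was read in Melan-A and almost not at all in B16 cells. Its members summed to 978 and 1051 counts in untreated Melan-A and 1438 and 1426 with SX-682. The sums were 0, 0, 1 and 1 in the untreated and then the treated B16F0 libraries, and 5, 2, 3 and 1 in those of B16F10. Of the 18 members, 13 had 0 counts in all 8 B16 libraries and none had more than 3 in any. The block holds H1f5, 5 H2A, 6 H2B, 2 H3 and 4 H4 genes, with 14 over 3 counts in each Melan-A library. H4c12 (Hist1h4k, chr13:21750194-21750505) held 214 and 200 counts in untreated Melan-A and 446 and 384 with SX-682, and 0 in each B16 library. Untreated, it was at least 55.3-fold lower in B16F0 and at least 48.5-fold lower in B16F10 than in Melan-A. H4c11 (Hist1h4j, chr13:21735064-21735837) held 167, 176, 255 and 282 counts in Melan-A and 0 in each B16 library, at least 45.7-fold and 40.1-fold lower. Hist1h2ao (chr13:21810465-21810944) held 190, 194, 298 and 243 counts in Melan-A and at most 3 in a B16 library. Of the 18, 15 were tested and all 15 were lower in both untreated B16 lines, but they passed the filter through their Melan-A counts, so their calls are no support beyond these values.

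Zinc finger genes on both sides of the block were read in all 3 lines, while many other listed genes near it were at or near 0. Zkscan8, a zinc finger gene that ends 185 kb before the block, held 1227 to 2541 counts in each library. Zfp184, another zinc finger gene, which starts 108 kb after it, held 490 to 839 counts in Melan-A and 189 to 331 in B16 libraries. Inside the block the non-coding gene Gm11274 held 44 to 85 counts in Melan-A and at most 1 in B16. Genes between the block and these neighbours held at most 10 counts in any library. No DNA was measured, and a block missing from the B16 genomes and a silent one cannot be told apart here. In Melan-A, SX-682 raised 4 of the 15 tested, near the 23.4% of all genes, namely H4c12 (1.28 ± 0.21), Hist1h4n (1.21 ± 0.37), H4c11 (0.92 ± 0.25) and Hist1h2ao (0.77 ± 0.24). The calls of Hist1h4n and Hist1h2ao were lost without the second untreated library (adjusted p = 0.11 and 0.0573). The first was also lost without the second SX-682 library (adjusted p = 0.149) and the other without the first (adjusted p = 0.167). Hist1h2ao shares 92.7% of its 100-base windows with other transcripts, against 19.0% for H4c11.

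**Figure D5:**
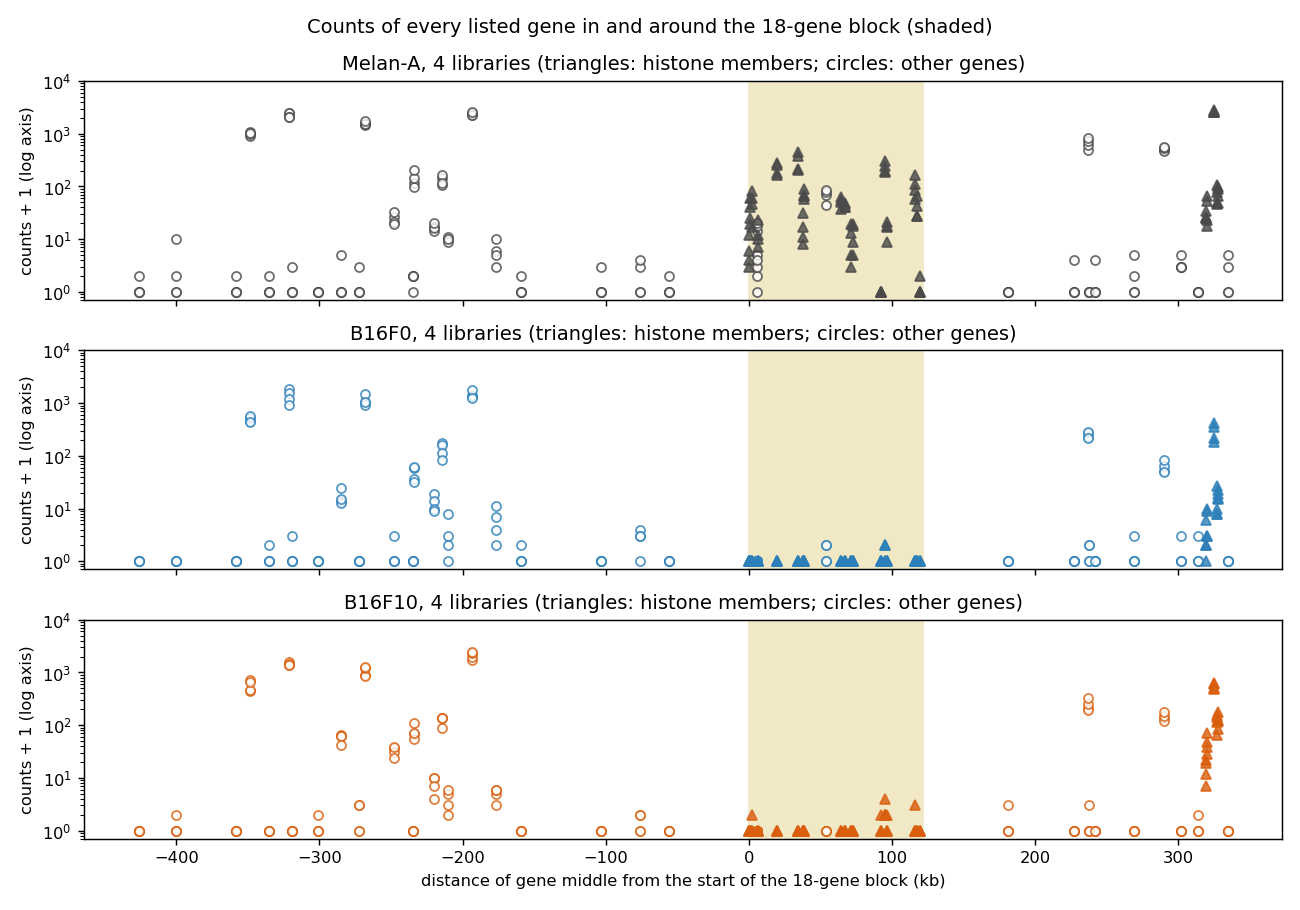
Counts plus 1 on a log axis of every listed gene within and around the 18-gene block, against the distance of its middle from the block's start, with 4 libraries per line (triangles for histone members, circles for other genes, shading for the block). Melan-A libraries hold up to 446 counts inside the block and B16 libraries at most 3, while the zinc finger genes on both sides of the gap are read in all 3 lines.

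Outside that block, untreated B16F0 cells also held less histone RNA. Of the 35 other members tested, 28 were lower (80%) and 2 higher in B16F0 than in Melan-A, against 40.6% lower of all genes. H2bc7, H2ac7 and H3c2, with at most 7 counts in a B16 library, passed the filter through their Melan-A counts. Lower calls among them are thus no support beyond those counts. The 2 higher (5.71%, against 35.3% of all genes) were H2bc21 (1.42 ± 0.08) and H2ac20 (2.50 ± 0.78, 3 and 6 counts in Melan-A against 24 and 18). H2ac20 passed the filter through its B16F0 counts, so its higher call is no support beyond those counts. Without the first untreated Melan-A library 1 member was called higher. H4c9 was 11-fold lower in B16F0, at 2806 and 2617 counts in Melan-A against 214 and 181 (−3.46 ± 0.09, edgeR adjusted p = 1.1e-24). H3c3 was 2.97-fold lower (−1.58 ± 0.17) and H2bc4 2.14-fold lower (−1.10 ± 0.06). H1f2 differed little, at −0.41 ± 0.04. The summed H4 level was 40.7 ± 3.31 CPM in untreated Melan-A and 4.65 ± 0.216 in B16F0.

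Untreated B16F10 was compared with Melan-A in the same way. Of the 35 members outside the block, 13 were lower in B16F10 than in Melan-A (37.1%, against 40.8% of all genes) and 6 higher (17.1%, against 33.4%). Lower calls of H2bc7, H2ac7 and H3c2, which passed the filter through Melan-A, again add no support. The 6 higher were H2bc21 (1.75 ± 0.08), H2ac8 (1.43 ± 0.24), H2ac11 (1.25 ± 0.33), H2bc11 (1.17 ± 0.28), H3c3 (1.15 ± 0.14) and H2bc4 (0.43 ± 0.05). H4c9 was again lower, 3.84-fold, at 480 and 513 counts (−1.94 ± 0.08). H3c3 reached 9.03 and 9.90 CPM in B16F10 against 4.35 and 4.15 in Melan-A and 1.20 and 1.67 in B16F0, so its 3 groups did not overlap. Between the melanoma lines, 25 of 50 members were higher in untreated B16F10 than in B16F0 (50%, against 30.8% of all genes) and 0 lower (31.2% of all genes), with 0 lower at an unadjusted p under 0.05 as well and 23 higher and 0 lower by DESeq2. One of the 25, Hist1h2ao, had at most 3 counts in those libraries. These comparisons share the untreated libraries, so their counts are not independent of each other.

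Lists of genes that act on histone RNA and on histones were read against all genes tested, of which SX-682 lowered 24.7%, 25% and 25.3% and raised 23.4%, 25.1% and 25.5% in Melan-A, B16F0 and B16F10, with 11.7% lower and 11.3% higher in all 3. Of 33 genes for the processing and transcription of histone mRNA, 20 fell and 4 rose in Melan-A, 17 and 7 in B16F0 and 18 and 6 in B16F10, with 15 lower and 3 higher in all 3. Slbp, the stem-loop binding protein, fell by 0.50 ± 0.04, 0.54 ± 0.04 and 0.75 ± 0.04 on the log2 scale in Melan-A, B16F0 and B16F10. Npat, the coactivator of histone transcription, fell by 0.15 ± 0.05, 0.70 ± 0.05 and 0.30 ± 0.05. Casp8ap2, a protein of the histone locus body, fell by 0.57 ± 0.05, 0.77 ± 0.06 and 0.84 ± 0.05. Srrt, the cap-associated factor ARS2, fell by 1.07 ± 0.03, 0.97 ± 0.03 and 1.10 ± 0.03. Each of these changes passed the edgeR test, the largest adjusted p being 0.0078 for Npat in Melan-A.

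Of 40 S phase genes, 33, 36 and 35 fell in Melan-A, B16F0 and B16F10, and 30 fell in all 3 lines. Slbp and the cyclin E genes stand in both this list and the one above. Rrm2, a ribonucleotide reductase subunit, fell by 1.28 ± 0.03, 0.74 ± 0.03 and 1.39 ± 0.03, and Ccne2, cyclin E2, by 1.72 ± 0.07, 1.96 ± 0.08 and 2.26 ± 0.08. Of 20 mitosis genes, all 20 fell in Melan-A and 19 in B16F0, while 8 fell and 5 rose in B16F10. Cdk1, the mitotic kinase, fell by 0.60 ± 0.03, 0.47 ± 0.03 and 0.26 ± 0.03, and Bub1b, a spindle checkpoint kinase, was at −0.72, −0.48 and −0.34 in the same order, each called. Of 24 histone chaperones, 19, 15 and 18 fell and 14 fell in all 3, among them Nasp, a carrier of H1 and H3-H4 (−0.98 ± 0.03, −0.90 ± 0.03 and −1.07 ± 0.03), and Anp32e, a chaperone of H2A.Z (−0.72, −0.48 and −0.47). The medians of these 4 lists were all under 0 in each line, from −0.75 (mitosis genes in Melan-A) to −0.01 (mitosis genes in B16F10), against 0 for all genes. In bulk libraries, fewer cells in S phase and less RNA per cell cannot be told apart.

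Histone genes outside the clusters gave different results by gene. Of 12 replacement and other separate histone genes 11 were tested, and 3 rose and 3 fell in all 3 lines, where 11.3% and 11.7% of all genes did. H1f0, the linker histone of resting and differentiated cells, rose in each line, by 0.56 ± 0.02, 0.96 ± 0.02 and 1.24 ± 0.02. H3f3b rose by 0.20 ± 0.03, 1.06 ± 0.03 and 0.65 ± 0.03, while H3f3a, which encodes the same H3.3 protein, fell by 0.46 ± 0.02, 0.37 ± 0.02 and 0.45 ± 0.02. H2az1, an H2A variant gene, fell by 0.60 ± 0.03, 0.49 ± 0.03 and 0.50 ± 0.03. H2ax, the H2A variant phosphorylated at DNA breaks, which also carries the stem-loop, fell by 0.66 ± 0.04 in Melan-A and rose by 0.66 ± 0.04 in B16F0, and was at 0.07 ± 0.04 in B16F10 (adjusted p = 0.15).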

How the data were processed

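Per the labels and the submitters' processing notes, reads were trimmed with cutadapt, aligned with STAR to mm10 and compared with DESeq2; versions, read length, strand, the counter and the library selection were not given in the sources used here. The authors deposited raw counts per gene for 34513 genes in 12 libraries. Every column was assigned by its name, and groups and replicate numbers came from the sample labels. All 59 members had the same coordinates in GENCODE M21 (GRCm38). The members and the gene lists were chosen with earlier results of these data known.

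The counts were fitted for all 12 libraries with edgeR 4.0.16 (R 4.3.3), as 1 model without a replicate block. Library sizes were scaled by TMM, 18338 genes passed filterByExpr, and contrasts were tested by quasi-likelihood F-tests. P-values were adjusted over all genes tested (Benjamini-Hochberg), with a threshold of 0.05. Each standard error is the log2 fold change over the square root of F, with 6 residual and 21.9 prior degrees of freedom. An exact permutation test of 2 against 2 libraries cannot go below 0.333. An F-test asked whether a change differed among the lines. CPM used TMM library sizes, and levels were compared between genes per kb of the deposited gene length. Bounds against groups at 0 take 3 counts per library and cover only counting error. Alternatives were DESeq2 1.42.0, RLE size factors, the unfiltered table, a minimum of 10 counts in all libraries, separate fits, a replicate block, another prior count, GC and length offsets, and leaving out each library.

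Members named were the 3 highest per kb of each class, the 3 largest called rises and falls per line and of each untreated B16 line against Melan-A (mean of at least 1 CPM, no overlap between groups), the 3 with the smallest p for a difference among lines, Slbp, Npat, Casp8ap2 and 2 genes per list with the smallest worst adjusted p in 1 direction. H1f5, H2ac4, H2ac6, H2ac7, H2ac20, H2bc3, H2bc8, H2bc9, H2bc12, H3c4, H3c15, H4c3 and H4c11, and H2az1, H2ax and H3f3b, were named after their values were seen. Sequences are from GENCODE M21 transcripts and RefSeq promoters (GRCm38.p6), matched when the RefSeq start lay within 2000 bases on the same strand.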

Additional observations from a re-analysis of the deposited data

Results flagged for a closer look

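The change under SX-682 differed among the 3 lines, by edgeR's F-test of the difference itself, for 14 members. The spread between the line with the largest and the line with the smallest log2 fold change was 2.21 for H2bc6, 1.97 for H1f2, 1.86 for H2bc21, 1.64 for H2bc4, 1.44 for H1f3, 1.43 for H2ac6, 1.17 for H1f4 and 1.08 for H4c9. In each of these B16F0 had the largest rise. Of these 8, H2bc21 was the one called in opposite directions, at −0.50 in Melan-A and 1.36 and 0.93 in B16F0 and B16F10.

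For H2bc8 the spread was 2.05, with 2.21 in B16F0 against 0.33 in Melan-A and 0.16 in B16F10. For H2ac4 it was 2.60 and for H2bc3 2.61, in both cases with a rise called in B16F0 alone. For H4c3 it was 1.93, with a fall called in B16F10 that rested on single libraries. The spreads of H3c15 (6.96) and H2ac7 (3.09) rest on untreated B16 libraries with 0 to 8 counts and on the small count added in the fit, so their size is not a measured fold. Groups of 2 libraries do not allow a test for a single library far from its group.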

How the results depend on the processing

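For the 150 changes of single members that were recomputed, 2785 of 2900 alternative values kept their direction and their side of the threshold, 80 fell short of it, 35 newly passed it and 0 changed direction where called. Calls that held under each alternative were 11 of the 15 rises in B16F0 (not H4c8, H2ac7, H3c4 and H2bc3), 6 of 9 in B16F10 (not H2ac7, H2bc6 and H1f4) and 5 of 9 in Melan-A (not H4c9, H2ac6, Hist1h2ao and Hist1h4n), with 1 of the 3 falls in Melan-A (H2bc21) and 0 of the 3 in B16F10. Requiring at least 10 counts in every library tested fewer members, and gave 5 raised and 1 lowered in Melan-A, 1 lowered in B16F10, 9 that differed among lines, 14 lower (43 of all 50 without that minimum) and 1 higher in untreated B16F0 and 10 lower (28 of all 50) in untreated B16F10 than in Melan-A, and 13 higher in B16F10 than in B16F0. Separate fits gave 5 lowered in Melan-A and 6 in B16F10 (the cause was not tested) and no value for the difference among lines. Leaving out 1 library gave 5 to 9 raised and 1 to 3 lowered in Melan-A, 12 to 14 raised and 0 to 1 lowered in B16F0, 6 to 8 raised and 1 to 4 lowered in B16F10, 3 to 5 raised in all 3 lines, and 1 to 3 higher in B16F0 than in Melan-A. The low ends were 1 lowered in B16F10 without its first untreated or first SX-682 library, 1 lowered in Melan-A without its second untreated or first SX-682 library, and 1 higher in B16F0 without the first untreated Melan-A library. The 1 lowered in B16F0 appeared without the first untreated B16F0 library. Replicate numbers did not pair the libraries (correlation of deviations 0.00108, 0.0222 and 0.00975), and with the replicate block 9, 14 and 8 members were raised and 4, 0 and 4 lowered in Melan-A, B16F0 and B16F10. With under 100 counts for many members, modest changes could not be called at this depth.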

Other observations

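A pair of pseudogene rows inside the clusters was left out by the rule. H2ac14, inside the 18-gene block, held 4, 13, 17 and 19 counts in the Melan-A libraries and 0 in each of the 8 B16 libraries. H2ac5-ps, in the large block on chromosome 13, held 0 to 7 counts in each library of all 3 lines. Among members that were not tested, H1f6, the testis linker histone gene, held 6 and 6 counts in untreated B16F0, 12 and 0 with SX-682, 2 and 6 in untreated B16F10 and at most 1 elsewhere.

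The 5 blocks did not rank the same way in each untreated line. The 18-gene block summed to 11.4 ± 0.171 CPM in untreated Melan-A (SD, n = 2). The 5-gene block with H4c9, at chr13:22035164-22043676, summed to 33.7 ± 2.23, 3.39 ± 0.169 and 14.0 ± 0.479 CPM in Melan-A, B16F0 and B16F10. The 29-gene block at chr13:23531050-23764406 summed to 94.7 ± 1.25, 55.6 ± 1.05 and 102.9 ± 3.01 CPM. The 5-gene block on chromosome 3, at chr3:96219865-96263311, went the other way, with 5.47 ± 0.745 CPM for Melan-A, 12.8 ± 0.289 for B16F0 and 15.7 ± 0.740 for B16F10, most of it from H2bc21.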
